A study of Rattus norvegicus with 8 samples.

Results

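Transcripts of 10 rat genes of the interleukin 1 system were followed across the lungs of smoke-exposed, treated and naive rats: the ligand genes Il1a, Il1b, Il18 and Il33, the antagonist gene Il1rn, the receptor genes Il1r1, Il1r2, Il1rl1 and Il1rap, and Casp1, the gene of the protease caspase 1. Members were all array probes whose RefSeq accession belongs to one of these genes. 12 of the 45598 probes on the array did so, and all 10 genes had at least 1. After a filter on dim probes, 10 probes remained, 1 for each gene, among 25097 features that were fitted together.

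The data are 8 1-colour arrays, each hybridised with Cy3-labelled cDNA made from 200 ng of RNA of male rat lung (30 mg of tissue). In 2 EV samples, 12 weeks of cigarette smoke were followed in week 13 by extracellular vesicles, delivered into the trachea and isolated from about 2500000 mesenchymal stem cells of human umbilical cord. In 2 MSC samples the same smoke was followed in week 13 by about 2500000 of the cells themselves, given by the same route. In 2 smoke samples the rats had the 12 weeks of smoke and no treatment, and in 2 naive samples they breathed normal air. Strain, age and the time from treatment to sampling are not given in the sources used here, and the labels leave it unsaid whether the 2 samples of a group came from different animals. The p-values therefore cover the spread between such samples, part of which may be technical.

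Interleukin 1 alpha and interleukin 1 beta both bind the receptor IL1R1, which then recruits the accessory protein IL1RAP and signals through MyD88 to NF-kB. IL1RN is a natural antagonist that occupies IL1R1 without signalling, and IL1R2 is a decoy that binds ligand and transmits nothing. Interleukin 1 beta and interleukin 18 are made as inactive precursors that caspase 1 cuts within the inflammasome, whereas interleukin 1 alpha and interleukin 33 are active before such cleavage and are released as alarm signals by damaged cells. Interleukin 33, stored in nuclei of epithelial and endothelial cells, acts through ST2, the product of Il1rl1, again with IL1RAP, and drives type 2 responses in the lung. The array measures transcripts only, so cleavage and release were not observed.

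The arrays differed widely in brightness, which bears on every direction given here. The 75th percentile of signal lay at 483 and 762 for EV lungs and at 246 and 256 for MSC lungs, against 2677 and 3235 for smoke lungs and 362 and 568 for naive lungs. The E1A spike-in controls, RNAs added to each sample for labelling, had a smoke to naive ratio of 0.832, an EV to smoke ratio of 1.15 and an MSC to smoke ratio of 1.38, whereas the same ratios of the 75th percentiles were 6.49, 0.206 and 0.0853. Levels are therefore given as log2 signal minus the array's 75th percentile (the percentile scale), and each difference is set beside the same difference after scaling to the spike-in controls (the spike-in scale). Over all features the median difference of smoke from naive was -0.62 on the percentile scale and 2.34 on the spike-in scale, that of EV from smoke was 0.55 and -1.94, and that of MSC from smoke was 0.74 and -3.28. Each group fills 1 column of the single slide, so group and slide column cannot be told apart. The level of a gene is also given as its percentile rank among all probes of its own array, which no scaling of a whole array changes.

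Casp1 and Il33 were the genes of the set that stood highest in smoke lung relative to naive lung and fell in both treatments, on both scales. Il18 rose in smoke and Il1a fell in both treatments, again on both scales. The spike-in scale shifts every gene of a comparison by the same amount, up in smoke against naive and down in treated against smoke lung. A rise in smoke or a fall in treatment on the percentile scale therefore keeps its direction there in any case. Il1b, Il1rn and Il1rl1 went the other way on the percentile scale, lower in smoke than in naive lung and higher in treated than in smoke lung, and these directions all turned on the spike-in scale. Of these, Il1rl1 passed between smoke and naive, Il1rn between EV and smoke, and Il1b and Il1rl1 between MSC and smoke. The receptor genes Il1r1 and Il1rap, which carry the signal of the ligands, differed by at most 0.32 on the percentile scale in any comparison with smoke and passed in none there, though some passed under other normalizations.

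Counted by limma with Benjamini-Hochberg adjustment over all features, 4 of 10 genes passed the 0.05 threshold in smoke against naive, 3 higher and 1 lower, where 47.5% of all features passed, 12.1% higher and 35.4% lower. Between EV and smoke 4 passed, 1 higher and 3 lower, against a background of 39.8% of features, 29.9% higher and 9.96% lower. Between MSC and smoke 6 passed, 2 higher and 4 lower, where the background was 59.7%, with 43.3% higher and 16.4% lower. The shares of the 10 genes that passed, 40%, 40% and 60%, thus lay near the background in all 3 comparisons. With spike-in scaling 10, 9 and 10 of the genes passed in these comparisons, where 83.2%, 74% and 88.7% of all features did. 3, 3 and 4 genes passed on both scales with the same direction: Il33, Il18 and Casp1 between smoke and naive, Il1a, Il33 and Casp1 between EV and smoke, and these with Il18 between MSC and smoke. The shift shared by all genes fixed these directions on the spike-in scale, so the agreement is no separate support.

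**Figure D1:**
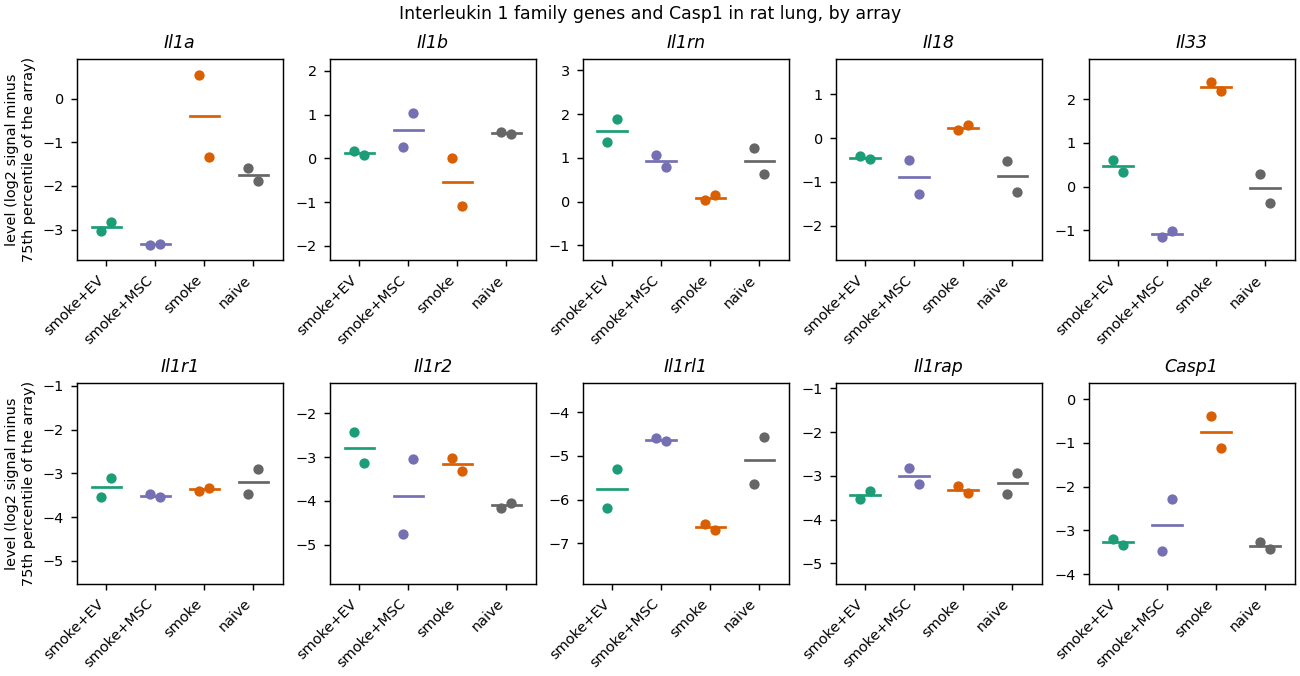
Level of each of the 10 genes (log2 signal minus the array's 75th percentile, y axis, same span in every panel) on the 2 arrays of each group, as points, with the group mean as a line. Casp1 and Il33 stand highest on both smoke arrays, whereas Il1rl1 stands lowest on them. Il1r1 and Il1rap stay close to their group means throughout.

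Il33 had levels of 0.61 and 0.33 in EV lungs and -1.15 and -1.02 in MSC lungs, against 2.38 and 2.18 in smoke lungs and 0.28 and -0.37 in naive lungs. Both smoke arrays lay far above all others, both MSC arrays lay below all others, and no 2 groups overlapped. In raw signal the probe gave 16859 and 12093 units on the smoke arrays and 691 and 281 on the naive arrays, and it ranked at the 97.1 and 96.6 percentiles of the smoke arrays against 88.3 and 84.7 on the naive arrays. It rose in smoke by 2.32 (SE 0.32, adjusted p = 0.00244, limma, 2 arrays a group), with 2.57% of features showing a higher difference. It was lower than in smoke in EV lung (log2 difference -1.81, SE 0.32, adjusted p = 0.00619) and in MSC lung (-3.36, SE 0.32, adjusted p = 0.000248). The spike-in scale gave 5.28, -4.30 and -7.38, all in the same directions, as the shift shared by all genes requires. Smoke against naive and MSC against smoke passed without any single array, while the EV call did not pass without smoke replicate 1 (-1.71, adjusted p = 0.0569) or without EV replicate 2 (-1.67, adjusted p = 0.0555).

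Il33 was also the 1 gene of the 10 that passed between the 2 treatments, where 7.14% of features passed, 1.8% higher and 5.34% lower. Its mean level was 0.47 in EV lung and -1.09 in MSC lung, which differ by 1.55 on the log2 scale (SE 0.32, adjusted p = 0.0405). The spike-in scale gave 3.09, and 2.23% of features had a higher difference between EV and MSC. The call rested on every EV, MSC and smoke array: without EV replicate 1 it stood at 1.41 (adjusted p = 0.247), without EV replicate 2 at 1.69 (adjusted p = 0.125), without MSC replicate 1 at 1.48 (adjusted p = 0.0923), without MSC replicate 2 at 1.62 (adjusted p = 0.0625) and without either smoke array at 1.55 (adjusted p = 0.0720), and it was lost without the filter on dim probes (adjusted p = 0.128). In those fits the share of all features that passed was 0% without an EV or smoke array or without the filter, 0.49% without MSC replicate 1 and 0.781% without MSC replicate 2. The levels of the EV arrays lay entirely above those of the MSC arrays. These are the values that the test used, so the separation is no separate support for the call.

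Casp1 was well above background on all 8 arrays. Its levels were -3.20 and -3.34 in EV lungs and -3.46 and -2.27 in MSC lungs, against -0.38 and -1.11 in smoke lungs and -3.27 and -3.43 in naive lungs. Both smoke arrays were above all others, and the EV and naive arrays interleaved. The probe's rank was the 86.1 and 81.5 percentile of the smoke arrays and lay between 59.6 and 70.4 on the other 6. Casp1 rose in smoke by 2.60 (SE 0.44, adjusted p = 0.00410), with 1.51% of features higher. It was lower than in smoke in EV lung (log2 difference -2.52, SE 0.44, adjusted p = 0.00624) and in MSC lung (-2.12, SE 0.44, adjusted p = 0.00472), and the spike-in scale gave 5.57, -5.01 and -6.14. Without smoke replicate 1 the EV difference was -2.16 and missed the threshold (adjusted p = 0.0570), and no other omission of an array ended a Casp1 call in these comparisons.

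The promoters of Casp1 and Il33 are shown because these genes passed as higher in smoke and as lower in both treatments. That of Il1b is shown because its mean level went the opposite way on the percentile scale. Among these comparisons Il1b passed in MSC against smoke only, and Il1rn and Il1rl1 also went the opposite way. Each sequence is the 250 bases before an annotated transcription start, 5′ to 3′ on the coding strand, from RefSeq's annotation of rat build GRCr8. Windows were found for 9 of the 10 genes, 11 in all since Il33 and Il1rap have 2 starts each. Capitals mark matches to 3 motifs searched on both strands: GGG, any 5 bases and then CC, a loose NF-kB-like pattern; GAAA, any 2 bases and then GAAA, a loose interferon-response-like pattern; and TATAAA, the TATA box.
Casp1, chr8:10872580-10872829, plus strand: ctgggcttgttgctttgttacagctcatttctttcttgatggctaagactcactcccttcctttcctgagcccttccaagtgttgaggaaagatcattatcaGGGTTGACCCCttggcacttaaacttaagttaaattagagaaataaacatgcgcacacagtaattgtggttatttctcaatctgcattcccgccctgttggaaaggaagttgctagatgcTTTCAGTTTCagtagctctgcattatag
Il33, downstream start, chr1:237134696-237134945, plus strand: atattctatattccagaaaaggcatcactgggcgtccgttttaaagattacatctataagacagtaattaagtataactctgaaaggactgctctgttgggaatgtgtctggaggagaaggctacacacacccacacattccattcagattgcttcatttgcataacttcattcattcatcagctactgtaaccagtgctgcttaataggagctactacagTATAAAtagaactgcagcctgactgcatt
Il1b, chr3:137036582-137036831, minus strand: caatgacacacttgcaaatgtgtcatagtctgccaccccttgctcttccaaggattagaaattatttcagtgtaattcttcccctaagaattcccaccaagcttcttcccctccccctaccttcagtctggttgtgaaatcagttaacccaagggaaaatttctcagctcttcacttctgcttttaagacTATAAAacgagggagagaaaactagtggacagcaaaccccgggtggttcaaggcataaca
In the Casp1 window the NF-kB-like pattern matched at -148 from the start, on both strands, and again at -147 in overlapping letters, and the interferon-response-like pattern matched at -28 on the strand opposite to the one printed. In the Il33 window a TATA box began at -29, and in the Il1b window at -60. The window of the other Il33 start held none of the 3. The NF-kB-like pattern was present in 42.3% of 33469 promoter windows of the same length, the TATA box in 12.9% and the interferon-response-like pattern in 3.41%; of the 11 windows of these genes they were present in 6, 5 and 2. The 2 Il1rap windows overlap and share NF-kB-like matches, so they are not separate among the 6. These matches describe the letters only.

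Il18, whose product needs caspase 1 to become active, had levels of -0.40 and -0.49 in EV lungs and -0.49 and -1.28 in MSC lungs, against 0.18 and 0.30 in smoke lungs and -0.51 and -1.23 in naive lungs. Only the smoke arrays stood apart, above all 6 others. Il18 rose in smoke by 1.11 (SE 0.37, adjusted p = 0.0417) and was lower than in smoke in MSC lung (log2 difference -1.13, SE 0.37, adjusted p = 0.0321). In EV lung the difference of -0.68 did not pass (SE 0.37, adjusted p = 0.176). The spike-in scale gave 4.08, -5.15 and -3.17 for these 3, the EV difference passing there (adjusted p = 0.000435). Both calls were close to the threshold: smoke against naive did not pass without the filter on dim probes (adjusted p = 0.0647), nor without naive replicate 2 (0.75, adjusted p = 0.194), smoke replicate 1 (1.17, adjusted p = 0.137), smoke replicate 2 (1.06, adjusted p = 0.136) or either EV array (1.11, adjusted p = 0.0681). MSC against smoke did not pass without smoke replicate 1 (-1.18, adjusted p = 0.100), smoke replicate 2 (-1.07, adjusted p = 0.116), either EV array (-1.13, adjusted p = 0.0535) or MSC replicate 2 (-0.73, adjusted p = 0.138).

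Il1a, the gene of the membrane-associated form of interleukin 1, gave levels of -3.03 and -2.83 in EV lungs and -3.34 and -3.32 in MSC lungs, against 0.54 and -1.33 in smoke lungs and -1.59 and -1.90 in naive lungs. The 2 smoke arrays were far apart, with raw signals of 4713 and 1064, yet both exceeded every other array, and all 4 treated arrays lay below both naive arrays. Smoke against naive reached 1.35 without passing (SE 0.55, adjusted p = 0.0770), and it moved with the smoke array left out: it was 0.41 without smoke replicate 1 (adjusted p = 0.435) and passed at 2.29 without smoke replicate 2 (adjusted p = 0.00880). Relative to smoke, Il1a fell in EV lung (log2 difference -2.53, SE 0.55, adjusted p = 0.0118) and in MSC lung (log2 difference -2.93, SE 0.55, adjusted p = 0.00299). In both, 98.5% of features had a higher difference. The spike-in scale gave 4.31, -5.02 and -6.96 for the 3 comparisons. The EV call did not pass without smoke replicate 1 (-1.60, adjusted p = 0.0508), EV replicate 1 (-2.43, adjusted p = 0.0529) or EV replicate 2 (-2.63, adjusted p = 0.0612), whereas the MSC call passed without any single array.

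Il1b ranked between the 81.7 and 91.7 percentiles on all 8 arrays. Its levels were 0.16 and 0.08 in EV lungs and 0.26 and 1.03 in MSC lungs, against 0.00 and -1.09 in smoke lungs and 0.60 and 0.55 in naive lungs. On the percentile scale both smoke arrays were below all 6 others, the first by a narrow margin from the EV arrays. By rank within the array only smoke replicate 2 was lowest, at the 81.7 percentile. Smoke replicate 1, at 88.3, stood above both EV arrays (88.0 and 87.4) and MSC replicate 1 (87.4). The difference of -1.12 between smoke and naive did not pass (SE 0.42, adjusted p = 0.0616), and depended on the arrays included: it was -0.58 without smoke replicate 2 (adjusted p = 0.319), while it passed without smoke replicate 1 (-1.67, adjusted p = 0.0451) or without either MSC array (-1.12, adjusted p = 0.0496). EV against smoke stood at 0.66 (SE 0.42, adjusted p = 0.241), at 0.12 without smoke replicate 2 and at 1.21 without smoke replicate 1. MSC against smoke passed at 1.19 (SE 0.42, adjusted p = 0.0424), with 40.5% of features showing a higher difference. That call did not pass without smoke replicate 2 (0.64, adjusted p = 0.252), MSC replicate 2 (0.81, adjusted p = 0.185), either naive array (1.19, adjusted p = 0.0592) or either EV array (1.19, adjusted p = 0.0651). The MSC call was also lost without the filter on dim probes (adjusted p = 0.0609), under quantile normalization (0.89), under cyclic loess (0.76) and with the percentile taken over probes (0.79), and under spike-in scaling all 3 directions turned, to 1.84, -1.82 and -2.83.

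Il1rn, the antagonist, was printed on 10 spots of each array, whose log2 signals had an SD of 0.035 to 0.091 within an array. Its levels were 1.35 and 1.89 in EV lungs and 1.06 and 0.80 in MSC lungs, against 0.03 and 0.16 in smoke lungs and 1.23 and 0.63 in naive lungs. The EV arrays were above all others and the smoke arrays below all others, and the MSC and naive arrays overlapped. Il1rn was higher in EV than in smoke lung by 1.53 (SE 0.33, adjusted p = 0.0120), while it stood at 0.84 in MSC against smoke (SE 0.33, adjusted p = 0.0616) and at -0.84 in smoke against naive (SE 0.33, adjusted p = 0.0721). On the spike-in scale EV against smoke turned to -0.95 and did not pass (adjusted p = 0.122), and the other differences turned to -3.18 and 2.13. The EV call also did not pass without smoke replicate 1 (1.46, adjusted p = 0.0844) or EV replicate 2 (1.26, adjusted p = 0.0942).

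**Figure D2:**
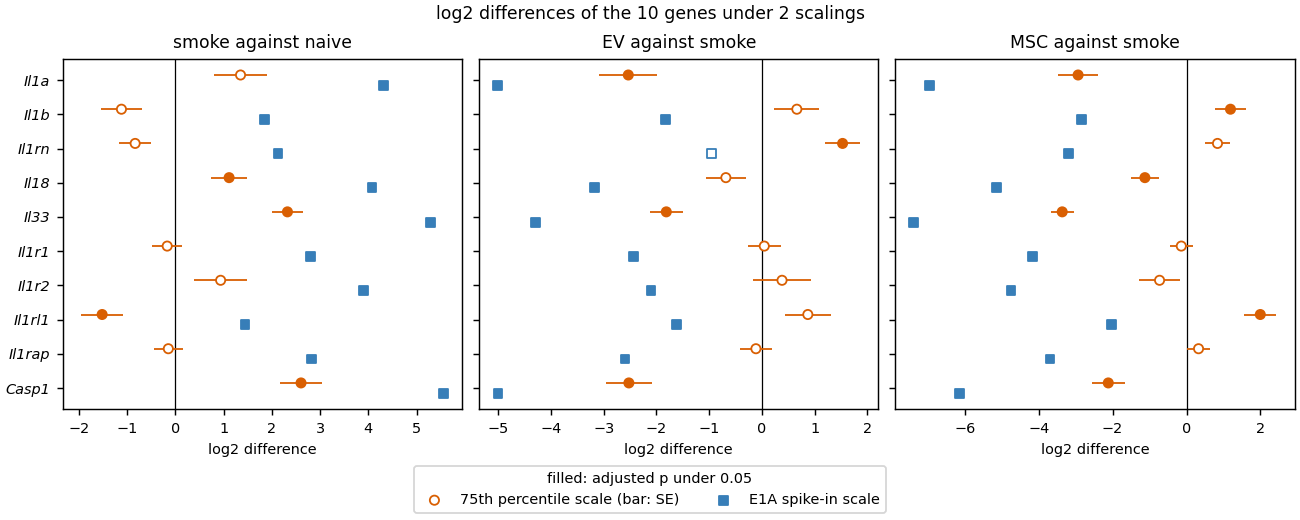
Log2 differences of the 10 genes, panel by panel for smoke against naive and for EV and MSC against smoke, with circles and standard error bars for the percentile scale and squares for the spike-in scale; filled symbols passed limma at an adjusted p of 0.05. Casp1, Il33, Il18 and Il1a lie on the same side of 0 under both scales in every panel, whereas Il1b, Il1rn and Il1rl1 change sides in every panel. The spike-in scale shifts every gene of a panel by the same amount, so the former were bound to keep their side.

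Among the receptors, Il1rl1 encodes ST2, the receptor of interleukin 33. Its levels were -6.19 and -5.31 in EV lungs and -4.59 and -4.66 in MSC lungs, against -6.55 and -6.69 in smoke lungs and -5.64 and -4.57 in naive lungs. The smoke arrays were below all others on the percentile scale. By rank within the array they overlapped naive and EV lungs. The probe stood at the 40.9 and 36.6 percentiles in smoke, 39.7 and 50.6 in naive, 36.6 and 41.8 in EV and 47.3 and 44.2 in MSC lungs. In raw signal the probe gave 34.4 and 25.9 units on the smoke arrays and 11.4 and 15.3 on the naive arrays. Il1rl1 was lower in smoke than in naive lung, by a log2 difference of -1.52 (SE 0.44, adjusted p = 0.0247), and higher in MSC than in smoke lung by 1.99 (SE 0.44, adjusted p = 0.00592), and both turned on the spike-in scale, to 1.44 and -2.03. EV against smoke stood at 0.87 (SE 0.44, adjusted p = 0.145), and turned to -1.61. Smoke against naive did not pass without naive replicate 2 (-0.98, adjusted p = 0.123), smoke replicate 1 (-1.59, adjusted p = 0.0976) or smoke replicate 2 (-1.45, adjusted p = 0.0907). Neither call passed under quantile normalization (-0.63 for smoke against naive, 0.69 for MSC against smoke) or cyclic loess (-0.79 and 0.74). A second probe, for another RefSeq transcript of the gene, was well above background on naive replicate 1 alone and was not fitted.

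Il1r2, the decoy receptor, had levels of -2.44 and -3.14 in EV lungs and -4.76 and -3.04 in MSC lungs, against -3.01 and -3.33 in smoke lungs and -4.17 and -4.05 in naive lungs. The first MSC array was the lowest of all 8 and the second lay among the smoke and EV arrays, and on the first the probe was not well above background. None of its differences from or in smoke passed: EV stood at 0.38 (adjusted p = 0.595) and MSC at -0.73 against smoke (adjusted p = 0.280), and smoke at 0.94 against naive (adjusted p = 0.189). Single arrays moved them. Smoke against naive passed without either MSC array (0.94, adjusted p = 0.0472), and MSC against smoke passed without MSC replicate 2 (-1.59, adjusted p = 0.0143) but turned to 0.13 without MSC replicate 1. The spike-in scale gave -2.10 and -4.75 for EV and MSC against smoke, and 3.90 for smoke against naive.

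Il1r1, the signalling receptor of interleukin 1, had levels of -3.53 and -3.11 in EV lungs and -3.47 and -3.55 in MSC lungs, against -3.40 and -3.33 in smoke lungs and -3.48 and -2.91 in naive lungs. Il1rap, the accessory chain that both IL1R1 and ST2 need, had -3.52 and -3.34 in EV lungs and -2.81 and -3.18 in MSC lungs, against -3.24 and -3.40 in smoke lungs and -3.41 and -2.93 in naive lungs. For each gene the 8 values fell within a span of less than 1 log2 unit. Smoke against naive stood at -0.17 for Il1r1 (SE 0.31, adjusted p = 0.667) and -0.15 for Il1rap (SE 0.30, adjusted p = 0.703), and both turned without naive replicate 2, to 0.12 and 0.09. EV against smoke stood at 0.05 and -0.11, and MSC against smoke at -0.14 and 0.32 (adjusted p from 0.380 to 0.916). Other settings gave calls: Il1r1 in MSC against smoke passed at -0.87 under quantile normalization (adjusted p = 0.0313) and -0.86 under cyclic loess (adjusted p = 0.0372), but at 1.04 with normexp background correction (adjusted p = 0.00272). With normexp, smoke against naive passed at -0.81 for Il1r1 (adjusted p = 0.0146) and -0.79 for Il1rap (adjusted p = 0.0197), and Il1rap in MSC against smoke at 1.21 (adjusted p = 0.000984). The spike-in scale gave 2.79 and 2.81 in smoke against naive, where the median of all features was 2.34. A second Il1rap probe, for another transcript, was well above background on naive replicate 1 and smoke replicate 1 only and was not fitted.

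Treated lungs were also set against naive lungs, to ask whether the members differed from their unexposed level. In EV against naive none of the 10 genes passed (limma, adjusted p from 0.951 to 0.995), and neither did any of the 25097 features, a background of 0%. At an unadjusted p under 0.05 there were 1 of the 10 genes and 1069 features, 4.26% of all. Differences ran from -1.18 for Il1a to 1.32 for Il1r2. In MSC against naive none of the 10 passed either (adjusted p from 0.142 to 0.999), where 1 feature did, 0.00398% of all and lower in MSC lung, and 2 genes had an unadjusted p under 0.05, as did 5501 features, 21.9% of all. Here differences ran from -1.59 for Il1a to 0.49 for Casp1, and Il33 stood at -1.04. On the spike-in scale 0 of the 10 genes passed in EV against naive, where 0.00797% of features did, and 2 passed in MSC against naive, where 6.51% did: Il1a at -2.64 (adjusted p = 0.0391) and Il33 at -2.10 (adjusted p = 0.0478). A p above the threshold does not show that treated and naive levels were equal.

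Between the treatments the 9 genes other than Il33 had adjusted p from 0.132 to 0.711. The widest of these differences were -1.12 for Il1rl1, with mean levels of -5.75 in EV lung and -4.63 in MSC lung, and 1.11 for Il1r2. On the spike-in scale 6 of the 10 genes passed, all higher in EV lung, where 40.8% of features passed.

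**Figure D3:**
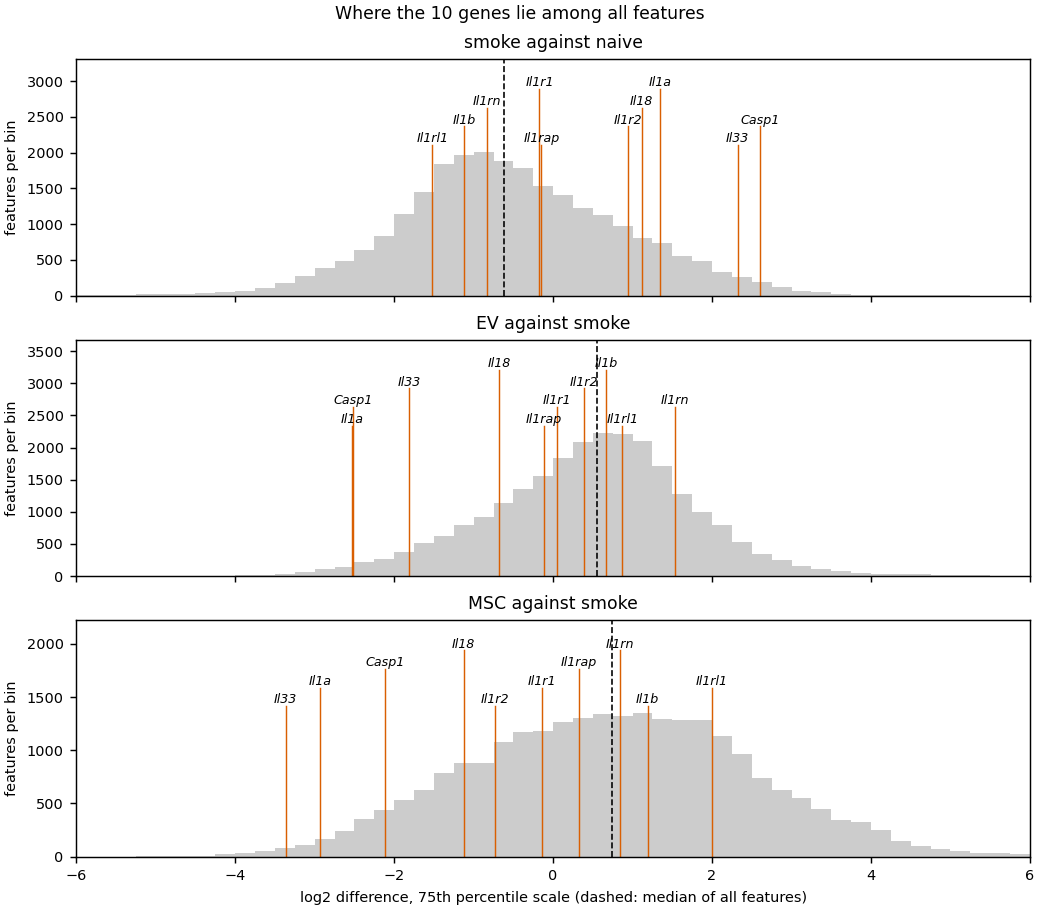
Distribution of log2 differences over all 25097 features on the percentile scale (features per bin, y axis) for smoke against naive and for EV and MSC against smoke, with the 10 genes as vertical lines and the median of all features dashed. Casp1 and Il33 lie in the right tail in smoke against naive, and Il33, Il1a and Casp1 in the left tail in both treatments; scaling by the spike-in controls shifts each whole panel and leaves the order unchanged.

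Differences between 2 genes on the same array do not change under a scaling by 1 factor per array, since that factor cancels. They were not computed under quantile or cyclic loess normalization, which do not use 1 factor per array. They are within-array log2 signal differences of 2 probes, so the value on 1 array has no meaning as a ratio of transcripts and only the change between groups is read. They are given per array and were not tested. With 2 arrays a group, an exact permutation test cannot give a p below 0.333. A lack of overlap is therefore a description only. Casp1 minus Il1b, the protease against its substrate, was -3.37 and -3.41 in EV lungs and -3.72 and -3.30 in MSC lungs, against -0.38 and -0.03 in smoke lungs and -3.87 and -3.99 in naive lungs. Smoke minus naive was thus 3.72, EV minus smoke -3.19 and MSC minus smoke -3.31, with no overlap in any of these. Casp1 minus Il18, the other substrate, changed by 1.49 in smoke from naive and by -1.84 in EV from smoke without overlap, whereas MSC and smoke overlapped, with means of -1.98 and -0.99. The MSC arrays themselves stood at -2.97 and -0.99. Background correction can still move such differences: with normexp in place of the scanner's own, Casp1 minus Il1b in MSC against smoke was -1.96, and Casp1 minus Il18 was 0.59 for smoke over naive, -1.04 for EV over smoke and -0.05 for MSC over smoke.

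Il1rl1 minus Il33, the receptor against its ligand, was -6.80 and -5.64 in EV lungs and -3.44 and -3.64 in MSC lungs, against -8.94 and -8.86 in smoke lungs and -5.92 and -4.20 in naive lungs. The smoke arrays were the lowest and the MSC arrays the highest, the change being -3.84 in smoke from naive, 2.68 in EV from smoke and 5.36 in MSC from smoke. Il1rn minus Il1b, the antagonist against its competitor, was 1.19 and 1.82 in EV lungs and 0.80 and -0.23 in MSC lungs, against 0.03 and 1.25 in smoke lungs and 0.63 and 0.07 in naive lungs. Only the EV arrays were apart from the MSC and naive arrays, by 1.22 and 1.15, and they overlapped the smoke arrays. Il1r2 minus Il1r1, the decoy against the signalling receptor, was 1.11 higher in smoke than in naive lung without overlap, while EV and MSC both overlapped smoke. Il1rap minus Il1r1 was 0.47 higher in MSC than in smoke lung without overlap.

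**Figure D4:**
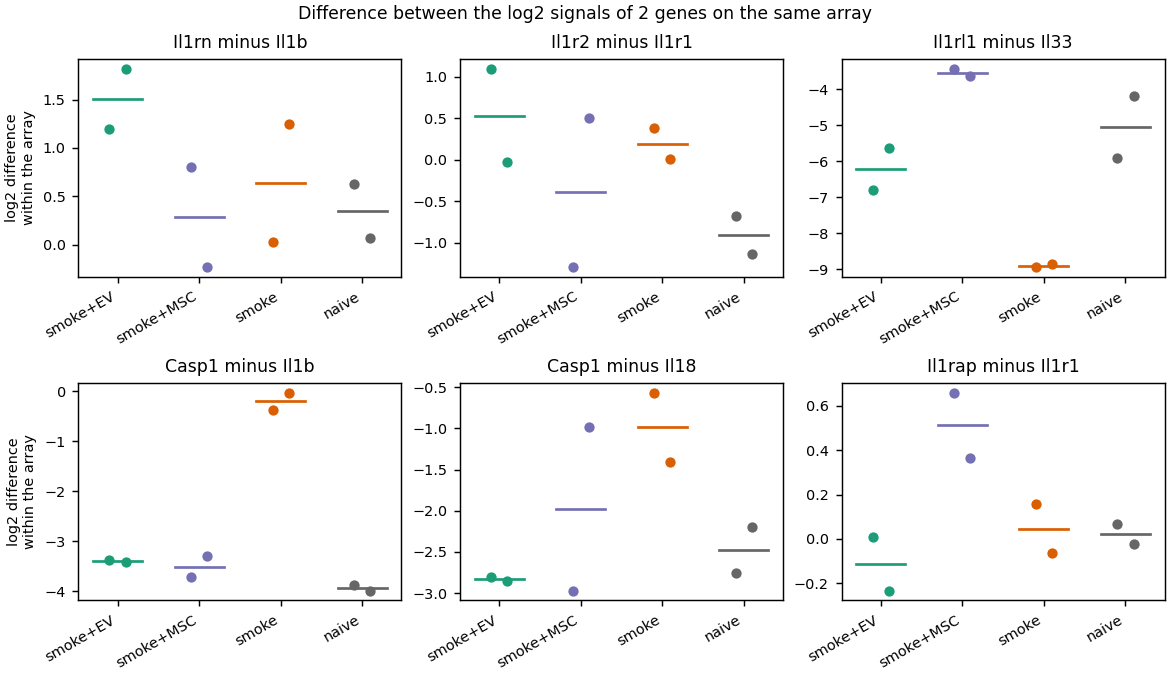
Difference between the log2 signals of 2 genes on the same array (y axis, its range differing by panel) for 6 pairs, with the 2 arrays of each group as points and the mean as a line. Casp1 minus Il1b stands near 0 on both smoke arrays and below -3 on the other 6, and Il1rl1 minus Il33 is lowest on the smoke arrays.

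Genes that act with these members were taken from 6 lists of 75 genes, 54 of them measured. On the percentile scale 12 rose and 12 fell in smoke against naive, 22.2% each, where 12.1% of all features were higher and 35.4% lower. EV against smoke had 11 higher (20.4%) and 10 lower (18.5%), where 29.9% and 9.96% of features were. MSC against smoke had 18 and 18 (33.3% each), where 43.3% and 16.4% of features were. The counts of each list given next stand against these same background shares. The median differences of the 54 genes were 0.18, -0.15 and -0.21, and those of all features -0.62, 0.55 and 0.74. In EV against MSC 2 were higher and 3 lower, against 1.8% and 5.34% of features, and in the comparisons with naive none passed. After spike-in scaling 50 of the 54 passed as higher in smoke against naive and none as lower, while 45 passed as lower for EV and 50 for MSC against smoke, and none as higher. Of all features 83.2%, 74% and 88.7% passed in these 3 comparisons, and 99.4%, 1% and 0.885% of those were higher. The counts of the 54 thus follow the shift of the whole array on that scale. Each gene named below as lower in smoke than naive lung, or as higher in treated than smoke lung, therefore turned there, except Csf3 in MSC against smoke, which stood at 0.18.

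Of the 11 measured genes of the inflammasome and its products, 4 rose and 2 fell in smoke against naive. Ninj1, which ruptures the membrane in the last step of lytic cell death, rose by 3.17 (adjusted p = 0.00409), and Casp8, an initiator caspase that can also cut interleukin 1 beta, by 2.50 (adjusted p = 0.00485). Pycard, the adaptor that links sensors to caspase 1, and Casp4, whose mouse counterpart senses bacterial lipopolysaccharide in the cytosol, also rose, by 2.11 and 1.96 (adjusted p = 0.00857 and 0.00964). They are named outside the rule, after their values were seen. The sensor gene Nlrp3 fell, at -1.19 (adjusted p = 0.0307), and Nek7, which NLRP3 needs to assemble, at -2.03 (adjusted p = 0.00427), and both turned on the spike-in scale, to 1.78 and 0.93. EV against smoke gave 2 higher and 4 lower, with Ninj1 at -3.21, Casp8 at -2.54, Nek7 at 1.66 and Txnip, which binds NLRP3, at 1.20. MSC against smoke gave 3 higher and 4 lower, with Ninj1 at -3.55, Casp8 at -2.70, Nek7 at 2.56 and Mefv, the pyrin sensor, at 1.58.

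Of 11 genes of signalling from the receptors, none rose and 3 fell in smoke against naive, among them Map3k7, the kinase TAK1, at -1.65 (adjusted p = 0.00606), and Myd88, the first adaptor, at -1.34 (adjusted p = 0.0157). In EV against smoke 3 were higher, with Map3k7 at 1.70 and its partner Tab1 at 0.90, and none lower. In MSC against smoke 5 were higher and 2 lower, with Map3k7 at 2.16, Tab1 at 1.25, the ubiquitin ligase gene Peli1 at -1.72 and the inhibitor gene Tollip at -1.05.

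Among 5 measured genes of the remaining family members and their receptors, Il18bp, the soluble trap for interleukin 18, did not clear background in naive lung and was at least 7.84-fold higher in smoke (adjusted p = 0.00567). It was lower than in smoke in EV lung (log2 difference -2.76, adjusted p = 0.0169), where it was well above background on 1 of 2 arrays, and at least 5.06-fold lower in MSC lung (adjusted p = 0.00771). Il18r1, the receptor that binds interleukin 18, went the other way, at 1.42 for EV and 2.39 for MSC against smoke, and at -1.504 for smoke against naive. Il36rn, the antagonist of interleukin 36, did likewise, at 1.82 for EV and 2.76 for MSC against smoke, and at -1.82 for smoke against naive. Il36b, an interleukin 36 ligand gene, was at least 2.46-fold lower in EV (adjusted p = 0.0403) and at least 2.26-fold lower in MSC than in smoke lung (adjusted p = 0.00340), and at least 2.21-fold higher in smoke than in naive lung (adjusted p = 0.0151). Where neither array of a group had the probe well above background, the fold is a lower bound on the percentile scale, against the higher of its own signal and the lowest signal of a probe well above background. Il18bp and Il36b passed the filter on dim probes through the smoke arrays alone, the group where they stood highest. Their adjusted p-values follow that selection and are no separate support for a rise in smoke.

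Genes that interleukin 1 induces were split: of 10 measured, 3 rose and 2 fell in smoke. Cxcl1, a neutrophil-attracting chemokine, rose by 2.78 (adjusted p = 0.00217) and Lcn2, an iron-binding acute-phase protein, by 1.63 (adjusted p = 0.00674), while Nos2, the inducible nitric oxide synthase, stood at -2.05 (adjusted p = 0.00499) and Csf3, the granulocyte growth factor, at -2.02 (adjusted p = 0.0162). EV against smoke had 1 higher and 2 lower, with Cxcl1 at -1.80, Lcn2 at -1.43 and Nos2 at 2.22. Against smoke, MSC lung had 2 higher and 4 lower, with Cxcl1 at -3.90, Lcn2 at -3.52, Nos2 at 3.36 and Csf3 at 4.20. Between treatments Cxcl1 and Lcn2 were higher in EV lung by 2.10 and 2.09 (adjusted p = 0.0369 for both) and Csf3 was lower, at -2.79 (adjusted p = 0.0376).

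Type 2 genes that lie downstream of interleukin 33 did not share 1 direction: of 9 measured, 2 rose and 2 fell in smoke against naive. Gata3, the regulator of type 2 lymphocytes, was at least 2.57-fold higher in smoke (adjusted p = 0.0162), and Areg, the repair factor amphiregulin, rose by 2.13 (adjusted p = 0.0398). Ccl24, an eosinophil-attracting chemokine, stood at -1.43 (adjusted p = 0.00583), and Il5, the eosinophil growth factor, was not well above background in smoke lung and at least 3.68-fold lower there than in naive lung (adjusted p = 0.0235). In EV against smoke 2 were higher and 1 lower, with Ccl24 at 1.31, Il5 at least 3.20-fold higher though well above background on 1 of 2 EV arrays (adjusted p = 0.0383), and Gata3 at least 3.62-fold lower (adjusted p = 0.00728). In MSC against smoke 3 were higher and 2 lower, with Ccl24 at 2.52, Il5 at least 8.55-fold higher (adjusted p = 0.00259), Areg at -4.09 with 1 of 2 MSC arrays well above background, and Retnla, a macrophage gene of type 2 responses, at -1.06. The filter on dim probes kept Gata3 through smoke or MSC lung and Il5 through naive or MSC lung, so their p-values are not free of that selection. Ccl24 was lower in EV than in MSC lung, at -1.21 (adjusted p = 0.0453), which turned to 0.33 on the spike-in scale.

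Proteases that cut interleukin 1 family ligands outside the inflammasome gave 8 measured genes. Gzmb, granzyme B of cytotoxic lymphocytes, rose in smoke by 2.82 (adjusted p = 0.00483) and was lower than in smoke at -2.62 in EV lung and -3.24 in MSC lung. Capn1, the gene of a calpain subunit, went the other way, at -1.57, 1.06 and 1.76. In MSC against smoke 3 were higher and 4 lower, among them Cma1, a mast cell chymase, at 2.28 and Capn2, another calpain subunit, at -1.51. Mcpt1, also a mast cell protease, was lower in EV than in MSC lung, at -2.56 (adjusted p = 0.0412).

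Markers of cells that make these transcripts moved between groups too, and their part in the results above was not tested. In whole lung tissue, fewer cells of a type and less RNA per cell cannot be told apart. The summed linear level (2 to the power of each marker's level) of 8 macrophage markers was 2.22 to 2.58 in EV lung and 2.02 to 2.17 in MSC lung, against 3.79 to 5.53 in smoke lung and 1.97 to 2.40 in naive lung. In smoke against naive 4 of the 8 rose and 1 fell, and at least 5 of the 8 were well above background on every array. The same sum for 5 measured neutrophil markers was 10.1 to 12.7 in EV lung and 5.14 to 12.5 in MSC lung, against 3.40 to 5.71 in smoke lung and 3.20 to 7.56 in naive lung, with 2 higher and 0 lower in smoke against naive. The neutrophil markers were split in treated lung, and a sum follows its brightest ones. In EV against smoke 1 was higher and 1 lower, and in MSC against smoke 1 was higher and 2 lower. For 7 markers of alveolar type 2 and airway epithelium, cells that store interleukin 33, the sum was 1015 to 1259 in EV lung and 932 to 1528 in MSC lung, against 440 to 461 in smoke lung and 1232 to 1654 in naive lung, with 0 higher and 3 lower. All 7 were well above background on every array, as the label of lung tissue requires. Mast cell and basophil markers, 7 measured, summed to 0.965 to 1.23 in EV lung and 2.13 to 3.45 in MSC lung, against 0.543 to 0.898 in smoke lung and 1.41 to 1.81 in naive lung. In smoke against naive 0 of them were higher and 2 lower. In EV against smoke 0 were higher and 1 lower, though the sum was higher, and in MSC against smoke 3 were higher and 0 lower. Endothelial markers, 8 measured, summed to 102 to 109 in EV lung and 105 to 209 in MSC lung, against 56.3 to 74.98 in smoke lung and 133 to 158 in naive lung. These markers were split, and such a sum follows its brightest ones. Of the 8, 3 were higher and 2 lower in smoke against naive, 1 higher and 3 lower in EV against smoke, and 3 higher and 3 lower in MSC against smoke. For 8 fibroblast markers the sum was 28.9 to 33.8 in EV lung and 31.0 to 44.2 in MSC lung, against 22.5 to 24.3 in smoke lung and 23.9 to 31.0 in naive lung, with 0 higher and 1 lower in smoke against naive. Each treatment against smoke had 1 fibroblast marker higher and 1 lower. For 7 markers of T and innate lymphoid cells it was 2.83 in both EV lungs and 3.56 to 7.39 in MSC lung, against 2.70 to 3.97 in smoke lung and 3.37 to 3.38 in naive lung, with 0 higher and 2 lower in smoke against naive. These sums are on the percentile scale. On the spike-in scale all 7 sums were higher on both smoke arrays than on both naive arrays, by 2.46-fold for epithelium, 3.41-fold for mast cells and basophils, 3.50-fold for endothelium and 6.70-fold to 16.4-fold for the other 4. There all 7 were lower on both MSC arrays than on both smoke arrays, and all but the neutrophil sum, which overlapped, were lower on both EV arrays.

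Genes whose levels followed Il33 and Il1b most closely over the 8 arrays were sought among 12719 named genes, as a description in which all points share the arrays' brightness. Ankrd13a, Pnpla2 and Ap1m2 tracked Il33, with a Pearson r of 0.998, 0.997 and 0.997. Spag16, Urod and Lekr1 tracked Il1b, with an r of 0.936, 0.934 and 0.926.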

How the data were processed

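The deposited files hold intensity values per spot of rat array design 074036, the processed signal of Agilent Feature Extraction 10.7.3.1 per the file headers, already background-subtracted but not scaled between arrays. Here outlier and control spots were dropped and spots of a probe averaged, and log2 signal minus the array's 75th percentile gave the level. Probes had to be well above background on 2 of 2 arrays in 1 or more groups, which kept 29612 of 45598, with 48.1% to 71.3% detected on an array. RefSeq accessions gave symbols for 21215 probes through a table of assembly GRCr8, and the brightest kept probe stood for a gene. No spot was saturated.

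The test was limma's moderated test (limma 3.58.1, R 4.3.3, data.table version 1.17.8), with 4 group means over 8 arrays and Benjamini-Hochberg adjustment over all 25097 features in each of 6 comparisons, 2-sided at 0.05. The number of arrays limits the precision. Replicates correlated at 0.951 to 0.980. Figures used Python 3.11.15 and matplotlib 3.10.9. The fit was tested on simulated data.

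The alternatives were scaling to 7 of 10 E1A spike-in probes, normexp background correction (offset 50, the median spot signal standing in for the mean), quantile and cyclic loess normalization, other filters, other choices among probes of a gene, a replicate block, and fits without 1 array, in which a lone array is taken to vary as the remaining groups do. A percentile taken over probes and a fit without the smoke arrays were added after seeing the data. Members, lists and alternatives were chosen with earlier results of these data known. All 10 members are named; from the 6 lists, the 2 genes with the smallest p per direction, list and comparison among those that passed; and for Il1b and Il33 the 3 genes most correlated with each.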

Additional observations from a re-analysis of the deposited data

Results flagged for a closer look

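Il33 lay further below smoke lung in MSC lung than in EV lung. The log2 difference from smoke lung was -1.81 for EV and -3.36 for MSC, and the test of the difference between them, which is the comparison of EV with MSC, gave 1.55 (limma, adjusted p = 0.0405). Both EV arrays lay above both MSC arrays, in the same values that the test used. The value was between 1.41 and 1.69 when single arrays were left out. The call did not hold without any 1 of the EV, MSC or smoke arrays, nor without the filter on dim probes.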

How the results depend on the processing

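The direction of a gene's change depended first on how arrays were scaled. With E1A spike-in scaling, 10 members passed between smoke and naive, 9 between EV and smoke, 10 between MSC and smoke, 6 between EV and MSC and 2 between MSC and naive. Of all features 83.2%, 74%, 88.7%, 40.8% and 6.51% passed in these comparisons on that scale. There smoke against naive turned for Il1b (1.84), Il1rn (2.13), Il1r1 (2.79), Il1rl1 (1.44) and Il1rap (2.81). EV against smoke turned for Il1b (-1.82), Il1rn (-0.95), Il1r1 (-2.44), Il1r2 (-2.10) and Il1rl1 (-1.61). MSC against smoke turned for Il1b (-2.83), Il1rn (-3.18), Il1rl1 (-2.03) and Il1rap (-3.70), and EV against MSC for Il1b (1.01), Il1rl1 (0.41), Il1rap (1.10) and Casp1 (1.13). The share of calls that are higher moved with this scaling: it was 99.4% of all called features in place of 25.5% between smoke and naive, 1% in place of 75% between EV and smoke, 0.885% in place of 72.5% between MSC and smoke and 99.9% in place of 25.2% between EV and MSC.

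With normexp background correction 9 members passed in smoke against naive, 10 in MSC against smoke and 4 in EV against MSC, where 73.8%, 78.6% and 50.4% of all features passed in place of 47.5%, 59.7% and 7.14%, and the share of higher calls was 10.4%, 89% and 5.92%. Smoke against naive turned for Il1r2 (-0.28), EV against smoke for Il1rap (0.46), MSC against smoke for Il1r1 (1.04) and Il1r2 (0.83), and EV against MSC for Il1a (-0.31), Il1r1 (-0.45) and Il1r2 (-0.10). Within-array differences moved too: Il1rl1 minus Il33 in EV against smoke was 3.53, Casp1 minus Il1b was 2.54, -2.28 and -1.96 in smoke against naive, EV against smoke and MSC against smoke, Casp1 minus Il18 was 0.59, -1.04 and -0.053, and Il1rap minus Il1r1 in MSC against smoke was 0.18.

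Il1r1 and Il1rap in smoke against naive turned to 0.22 and 0.23 under quantile normalization, 0.26 and 0.27 under cyclic loess and 0.043 and 0.067 with the percentile over probes. Under these 3 settings Il1r1 in EV against smoke turned to -0.29, -0.37 and -0.10, and Il1rap in MSC against smoke to -0.34, -0.36 and -0.072. Il1r2 in EV against smoke turned to -0.05 under cyclic loess. Quantile normalization gave a share of higher calls of 46.9% between smoke and naive, 54.5% between EV and smoke, 49.9% between MSC and smoke and 55.8% between EV and MSC, and cyclic loess gave 49.3%, 49.6%, 49.2% and 55.5%. Without a filter on dim probes 0 members passed in EV against MSC, where 0% of all features did. With probes well above background on all 8 arrays 7 of 9 measured members passed in smoke against naive. There 57.3% of all features passed, in place of 47.5%. Il1rl1 in smoke against naive and in MSC against smoke did not pass under quantile normalization or cyclic loess, and Il1b in MSC against smoke did not pass under those, with the percentile over probes (0.79) or without the filter. The cause of these changes was not tested.

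Fits without 1 array gave 2 to 6 members passing between smoke and naive, 0 to 4 between EV and smoke, 4 to 6 between MSC and smoke and 0 to 1 between EV and MSC, while the share of all features passing ran from 17.4% to 52.9%, 7.41% to 45.8%, 40.3% to 60.2% and 0% to 6.96%. Without both smoke arrays 0 passed in EV against MSC, where 0% of all features did. Ranges that crossed 0 were -0.46 to 0.12 for Il1r1 and -0.39 to 0.094 for Il1rap in smoke against naive, -0.17 to 0.26 for Il1r1 in EV against smoke, -1.59 to 0.13 for Il1r2 in MSC against smoke, and -0.024 to 0.40 for Il1r1 in EV against MSC, where Casp1 ran from -1 to 0.19. For the within-array differences, ranges in smoke against naive were -0.33 to 0.90 for Il1rn minus Il1b, -0.087 to 0.13 for Il1rap minus Il1r1 and -4.703 to -2.98 for Il1rl1 minus Il33. In EV against smoke Il1r2 minus Il1r1 ran from -0.23 to 0.90. In MSC against smoke the ranges were -0.96 to 0.26 for Il1rn minus Il1b, -1.49 to 0.31 for Il1r2 minus Il1r1, -3.52 to -3.09 for Casp1 minus Il1b and -1.98 to -1.26e-05 for Casp1 minus Il18.

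The replicate number as a block gave 4, 4, 5 and 1 members passing in the same order of comparisons. Of all features 46.1%, 37.6%, 59% and 4% passed in that fit. Il1b in MSC against smoke missed the threshold there (limma, adjusted p = 0.0555). Samples with the same number did not deviate together: the correlation of their deviations between groups was -0.149 to 0.139, so the numbers were not taken as a pairing.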
